A study of Mus musculus with 2 samples.

Results

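The genes described here encode proteins that hold neighbouring cells together: claudins, MARVEL-domain proteins and their cytoplasmic scaffolds, immunoglobulin-family adhesion molecules, and cadherins. They were taken by gene name (the numbered Cldn and Cdh genes, the Tjp genes, Ocln, F11r, Jam2, Jam3, Esam, Pecam1, Cgn, Cgnl1 and Marveld1 to Marveld3), which gave 46 of the 20140 genes with a row. The name rule uses no measured values, although it was set with earlier results of these data known. They comprised 14 claudins, 18 cadherins, 5 immunoglobulin adhesion molecules, 5 scaffolds and 4 MARVEL proteins.

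The study profiled single cells of the mouse submandibular gland after closure of its main duct. Both libraries came from female C57BL6/J mice of 14 weeks. In the ligated group a metal clip had closed the main submandibular and sublingual ducts for 14 days. In the mock group the same ducts had been found at surgery but not clipped, and the mice were kept for the same 14 days. Each group had 1 droplet library made from 2 pooled glands, and in both groups EpCAM-bearing epithelial cells, Ter119-bearing red cells and dead cells had been depleted before capture. Sublingual glands were collected with the submandibular ones, per the labels' protocols, so the gland of origin of a cell is unknown. With 1 library a group there is no replicate error, and no test was made: a difference below compares these libraries and not the conditions.

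The 4 deposited tables held the mean over the cells of a cluster of each gene's share of a cell's UMIs (unique molecules), per 10000 UMIs, and every level below is in that unit. A difference is log2((ligated + 0.1)/(mock + 0.1)), and a gene was called higher or lower where the larger level was at least 0.5 and the difference at least 1 in size. This size rule is a description and not a test. Cell numbers recovered from the means came to 11406 (ligated) and 4199 (mock), and clusters were compared only where both libraries had at least 50 cells. UMI totals could be recovered for 2264 and 623 single cells, with medians of 6490 and 6572, although this sample leans toward deep cells. Markers of other cell types stood in the ligated ductal-like cluster at a median of 23.2% of their library mean against 6.72% in the mock one, and in the first endothelial-like cluster at 9.28% against 3.37%. That difference between the libraries touches every low value below, and its part in the results was not tested.

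Tight junctions seal the space between neighbouring cells. Claudins form their strands, occludin and other MARVEL proteins join them, and zonula occludens proteins and cingulins tie them to actin. Adherens junctions are built from cadherins, which bind calcium and usually pair with the same cadherin on the next cell. In a salivary gland, duct and acinar cells keep saliva apart from the tissue by epithelial claudins and E-cadherin, whereas vessels use claudin-5, VE-cadherin, PECAM-1 and the junctional adhesion molecules.

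The clusters were named from marker lists. Of the clusters of all cells, cluster 0 (endothelial-like, 9 of 10 endothelial and 6 of 6 capillary markers at 0.5 or more) and cluster 4 (endothelial-like, 8 of 8 arterial and 4 of 7 lymphatic markers at that level) held vessel cells. The others were natural killer-like (1), T cell-like (2), fibroblast-like (3), macrophage-like (5), mural-like (6), ductal-like (7), Schwann-like (9) and erythroid-like (10). Mural-like stands for markers of pericytes and vascular smooth muscle, of which cluster 6 had 11 of 11 at 0.5 or more. Cluster 6 also had 3 of 5 myoepithelial or basal markers at that level, so its name does not exclude such cells. The mural-like cluster of the subset had 0 of 5. Macrophage-like cluster 5 had 9 of 10 macrophage and 4 of 6 B cell markers at 0.5 or more, so its name does not exclude B cells. Erythroid-like cluster 10 had 6 of 8 erythroid markers at 0.5 or more. It also had 9 of 10 endothelial, 6 of 6 capillary and 7 of 10 macrophage markers at that level, so it is mixed by these lists. Clusters 8 and 11 stayed unnamed. A further pair of tables covered a subset of cells in 5 clusters, named for Pdgfr and Gli1, which held 15.0% of the cells. These cells also lie in the tables of all cells, so the subset is no independent check. The subset cluster called endothelial-like had 9 of 10 endothelial markers at 0.5 or more. It also had 8 of 10 fibroblast and 9 of 11 mural markers at that level, so it is mixed by these lists. Although EpCAM-bearing cells had been depleted, ductal-like cells still had Epcam levels of 5.59 (ligated) and 1.53 (mock).

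The claudins that reached appreciable levels were Cldn5 in vessels and Cldn3, Cldn4 and Cldn7 in duct cells. The 250 bases before the RefSeq start of each are shown 5′ to 3′ on the gene's own strand (assembly GRCm38.p6), because they let the vessel gene be set beside the duct genes. The windows are chr16:18776597-18776846 (+ strand) for Cldn5, chr5:134985964-134986213 (+ strand) for Cldn3, chr5:134946935-134947184 (− strand) for Cldn4 and chr11:69964529-69964778 (+ strand) for Cldn7, where the first of its listed windows is given. No exon of GENCODE M21 lies in any of them. Capitals mark matches, on either strand, to 3 motifs that were searched: a grainyhead-type AACNGGTT, an ETS-type AGGAAG and a GC box GGGCGG.
Cldn5: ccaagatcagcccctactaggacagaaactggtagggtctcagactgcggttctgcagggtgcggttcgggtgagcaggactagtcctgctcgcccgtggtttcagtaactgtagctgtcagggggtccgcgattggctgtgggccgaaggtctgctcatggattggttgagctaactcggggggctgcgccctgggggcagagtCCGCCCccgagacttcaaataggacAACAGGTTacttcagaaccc
Cldn3: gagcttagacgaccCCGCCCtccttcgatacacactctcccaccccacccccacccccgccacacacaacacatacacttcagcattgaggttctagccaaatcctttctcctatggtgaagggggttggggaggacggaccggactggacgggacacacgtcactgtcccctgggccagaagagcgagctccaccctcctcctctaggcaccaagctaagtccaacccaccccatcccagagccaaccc
Cldn4: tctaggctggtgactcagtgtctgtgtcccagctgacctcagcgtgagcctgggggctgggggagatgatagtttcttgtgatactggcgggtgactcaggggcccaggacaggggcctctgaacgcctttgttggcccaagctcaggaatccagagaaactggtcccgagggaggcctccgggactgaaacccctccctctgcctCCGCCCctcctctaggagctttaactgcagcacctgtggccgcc
Cldn7: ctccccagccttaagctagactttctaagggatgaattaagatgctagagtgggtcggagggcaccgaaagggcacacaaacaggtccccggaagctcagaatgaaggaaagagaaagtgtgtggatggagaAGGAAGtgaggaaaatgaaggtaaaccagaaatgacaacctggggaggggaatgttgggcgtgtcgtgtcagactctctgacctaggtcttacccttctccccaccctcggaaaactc

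Grainyhead factors act in epithelia and ETS factors include regulators of both epithelia and endothelium. The grainyhead-type letters were present in 1.79% of the 32851 windows of all genes and in 2 of the 37 windows found for 29 junction genes. Of the 4 claudins shown, Cldn5 alone held them, from 20 to 13 bases before its start. GC box letters were present in 32.7% of all windows and in 23 of the 37. Cldn5 (45 to 40 bases before the start), Cldn3 (236 to 231) and Cldn4 (44 to 39) each had a match on the opposite strand. ETS-type letters were present in 29.5% of all windows and in 15 of the 37, and here only Cldn7 had them, from 118 to 113 bases before its start. A match describes these letters and is not a bound site.

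Of the 46 genes, 19 reached 0.5 in at least 1 cluster of the table that joins both libraries. These were 4 of 14 claudins, 1 of 4 MARVEL proteins, 3 of 5 scaffolds, 5 of 5 immunoglobulin molecules and 6 of 18 cadherins. Among the 19, the highest level lay in endothelial-like cluster 0 for 5 genes and in endothelial-like cluster 4 for another 5. That is 26.3% of them in each, where 11.3% and 8.90% of the 6777 genes reaching 0.5 peaked in those clusters. The 5 immunoglobulin molecules, which were each entered by name, all peaked there, so the choice of names enters these shares. The peak held a median of 33.9% of a gene's sum over the 12 clusters, against 19.6% for all genes reaching 0.5. The other 27 peaked between 0.00148 (Cldn20) and 0.389 (Cldn10).

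**Figure D1:**
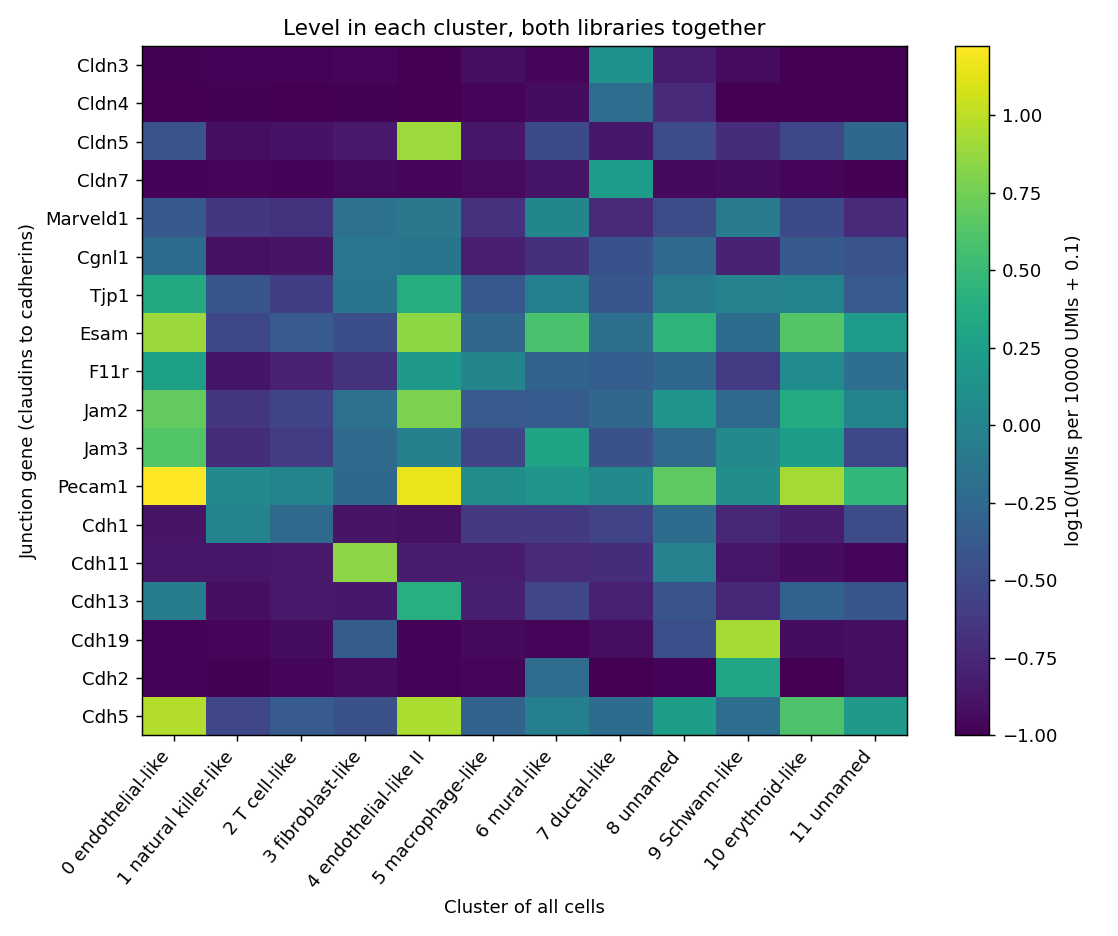
Mean level, as log10 of UMIs per 10000 plus 0.1 (colour), of 18 genes that reached 0.5 (rows) in the 12 clusters of all cells with both libraries joined (columns). Pecam1, Cdh5, Esam and Jam2 are high in both endothelial-like clusters, Cldn5 in cluster 4, Cldn3, Cldn4 and Cldn7 in the ductal-like cluster, Cdh11 in fibroblast-like and Cdh19 in Schwann-like cells.

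Claudin-5, the main strand-forming claudin of endothelium, was concentrated in cluster 4. Its level there was 7.74, which is 17.1-fold the next highest (0.453 in unnamed cluster 11), and 82.5% of its sum over the clusters. The other endothelial-like cluster, with capillary markers, stood at 0.281. By library, cluster 4 gave 8.25 in ligated and 6.56 in mock cells (difference 0.32), which is not past the size rule. In cluster 0 the levels were 0.478 and 0.0346 (difference 2.10), and since the larger is under 0.5 this pair was not called.

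In the endothelial-like cells of the subset, Cldn5 stood at 1.12 in 260 ligated and 0.294 in 82 mock cells, a difference of 1.63 that is past the size rule, as it was for 1.29% of all genes there in that direction. The summed arterial markers of those cells were 8.41 in ligated and 6.08 in mock, and the lymphatic markers 1.15 and 0.887. In cluster 0 the arterial sums were 4.24 and 3.67, with 8 of 8 markers above 0 in both libraries. Cldn5 in ligated cluster 0 was at 87.0% of its own library mean and in mock cluster 0 at 9.09%. The part that cells of cluster 4 or their free RNA have in these values was not tested.

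Claudins 3, 4 and 7, which belong to simple epithelia, peaked in the ductal-like cluster. Their ductal-like levels, libraries joined, were 1.30 for Cldn3, 0.536 for Cldn4 and 1.58 for Cldn7. The ductal-like cluster held 91.6%, 81.9% and 92.4% of the respective sums over the 12 clusters.

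All 3 duct claudins were higher in ligated than in mock ductal-like cells, past the size rule. Cldn7 stood at 2.44 in 278 ligated and 0.399 in 201 mock cells, a difference of 2.34. For Cldn3 the levels were 1.98 and 0.347, a difference of 2.22. For Cldn4 they were 0.728 and 0.271, a difference of 1.16. In this cluster 2.39% of all genes were called higher and 1.88% lower. Among the 3255 genes with a level of 0.5 or more there, 14.8% were higher and 11.6% lower.

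The depth behind these levels was low. The median recovered UMI total of ductal-like cells was 982.5 in ligated and 1076.5 in mock, so the Cldn7 levels correspond to about 66.6 and 8.64 UMIs over the whole cluster. For Cldn3 they correspond to about 54.2 and 7.50 and for Cldn4 to about 19.9 and 5.85. Other duct genes moved in the same cluster. Krt7, a duct keratin, stood at 22.3 in ligated and 8.23 in mock cells. Krt18 stood at 23.3 and 11.2, and Epcam, the depletion target, at 5.59 and 1.53. Klk1, a kallikrein of granular duct cells, stood at 898 and 346. All 10 duct markers were above 0 in both libraries, and 7 were higher in ligated and 3 higher in mock cells. The 3 were Ehf, an epithelial ETS factor, at 1.67 in ligated and 3.14 in mock, Klk1b22, another kallikrein, at 1.61 and 2.29, and Elf5, another ETS factor, at 0.0237 and 0.0959. The 10 summed to 977 in ligated and 380 in mock cells, and to 79.4 and 34.2 without Klk1. The part of this gap in the claudin differences was not tested.

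Other claudins were low. Cldn8, a claudin of distal tubules and ducts, peaked in the ductal-like cluster at 0.429 in ligated and 0.207 in mock cells. Cldn10, a pore-forming claudin, peaked at 0.389 in unnamed cluster 8, which acinar genes lead, and stood at 0.128 and 0.172 in ductal-like cells. Cldn15 peaked in endothelial-like cluster 0 at 0.295 in ligated and 0.133 in mock cells. Cldn19, a myelin claudin of Schwann cells, peaked in Schwann-like cells, with a ligated level of 0.227 and a listed 0 for the 17 mock cells. Cldn12 peaked at 0.106, and Cldn1, Cldn11, Cldn20, Cldn22 and Cldn23 stayed at or under 0.0376. Cldn11, Cldn19 and Cldn20, with the cadherin Cdh23, were above 0 in the ligated library only, which had more cells.

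**Figure D2:**
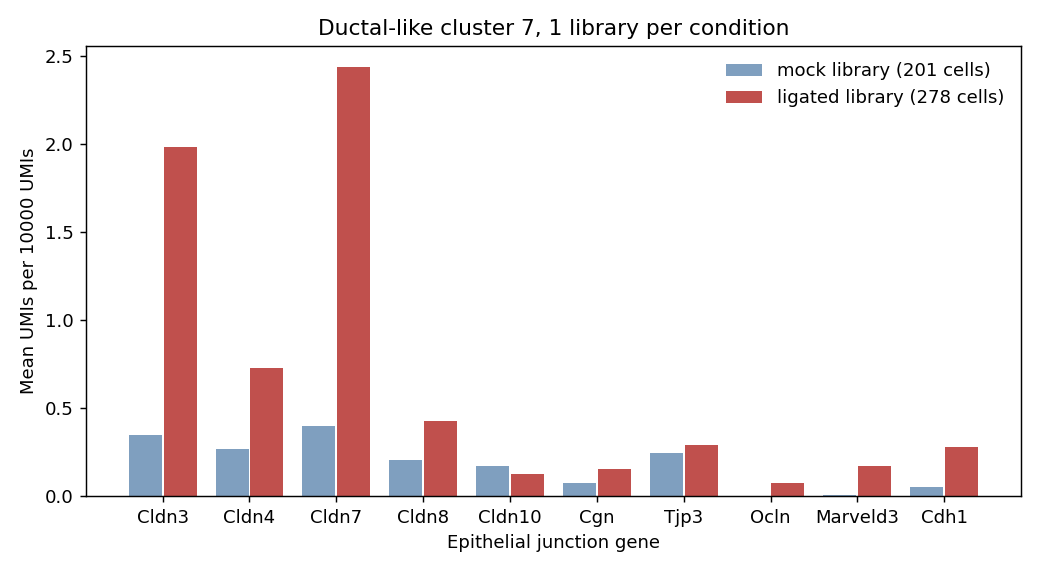
Mean level in UMIs per 10000 (vertical axis, from 0) of 10 epithelial junction genes in ductal-like cells of the mock (201 cells) and ligated (278 cells) libraries, 1 library a group and so no error bars. The ligated bars of Cldn3, Cldn4 and Cldn7 stand well above the mock bars, whereas Cldn10, Tjp3 and Cgn are under 0.5 in both.

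Among the MARVEL proteins, the membrane proteins that include occludin, Marveld1 alone reached 0.5. It peaked in mural-like cells at 0.782 in ligated and 1.36 in mock (difference -0.73), which is not past the rule. In mural-like cells of the subset the levels were 0.923 and 1.55 (difference -0.69). The summed mural markers were also lower in ligated cells, at 144 against 228 in cluster 6 and 163 against 241 in the subset. Their part in the Marveld1 values was not tested. Ocln peaked in ductal-like cells at 0.0738 in ligated and 0.00222 in mock, and Marveld3 there at 0.172 and 0.00444. Marveld2, or tricellulin, which seals corners where 3 cells meet, peaked at 0.0841 in natural killer-like cells. All 3 stayed under the minimum level of the size rule.

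The scaffolds differed in where they peaked. Tjp1, the zonula occludens protein ZO-1, peaked in vessels, with levels of 2.45 in ligated and 1.83 in mock cells of cluster 0 (difference 0.40) and 2.16 and 2.65 in cluster 4. It was called in the erythroid-like cluster only, at 1.30 in 60 ligated and 0.593 in 85 mock cells, a difference of 1.02. In that cluster 3.42% of all genes were called higher and 0.318% lower. The summed erythroid markers there were 1921 in ligated and 4418 in mock cells and the endothelial markers 70.6 and 86.1. The median difference over all genes with a mean of at least 0.05 was 0.385 there, and the Tjp1 difference centred on it was 0.63, under the rule. Tjp3, a scaffold of epithelia, and Cgn, cingulin, peaked in ductal-like cells, Tjp3 at 0.291 in ligated and 0.248 in mock and Cgn at 0.154 and 0.0728.

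Cgnl1 was the junction gene called in the most clusters. It encodes paracingulin, a cytoplasmic linker found at both tight and adherens junctions that binds regulators of small GTPases. In endothelial-like cluster 0 its level was 0.727 in 2948 ligated and 0.240 in 2363 mock cells, a difference of 1.28. In fibroblast-like cells it was 0.711 in 1149 ligated and 0.283 in 188 mock cells, a difference of 1.08. In the erythroid-like cluster, mixed by its markers, it was 0.572 and 0.148, a difference of 1.44. Of all genes 0.75% were called higher in cluster 0, 0.834% in the fibroblast-like cluster and 3.42% in the erythroid-like one.

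The subset gave Cgnl1 levels of 0.760 in ligated and 0.304 in mock fibroblast-like cells (difference 1.09) and 0.636 and 0.117 in endothelial-like cells (difference 1.76), again past the rule. Here 0.884% and 1.29% of all genes were called higher. Fibroblast markers, whose cells also carry Cgnl1, summed to 70.0 in ligated and 20.0 in mock cells of that subset endothelial-like cluster. In cluster 0 they summed to 2.19 and 0.292, and their part in the Cgnl1 values was not tested. Cluster 4 was not called, at 0.668 in ligated and 0.536 in mock cells (difference 0.27). Cgnl1 was higher in the ligated library in 9 of 9 compared clusters of all cells and in 3 of 3 of the subset. Of the 8300 genes with a mean of 0.1 or more in both libraries, 6.18% were higher in all 9 clusters. Of the 14 junction genes with such means these were 3, namely Cgnl1, Jam2 and Cdh11, and 0 were lower in all 9, against 1.39% of all genes. These counts moved once each library's mean profile was subtracted. Cgnl1 was then higher in 7 of the 9 clusters and lower in 2, Jam2 higher in 4 and lower in 3, and Cdh11 higher in 1 and lower in 4. The Cgnl1 call in erythroid-like cells was also lost, since its larger level fell under 0.5, although the difference there was 1.31. The calls in cluster 0 (difference 1.25) and in fibroblast-like cells (1.04) were kept. The libraries are the same in every cluster, so the clusters do not replicate each other.

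**Figure D3:**
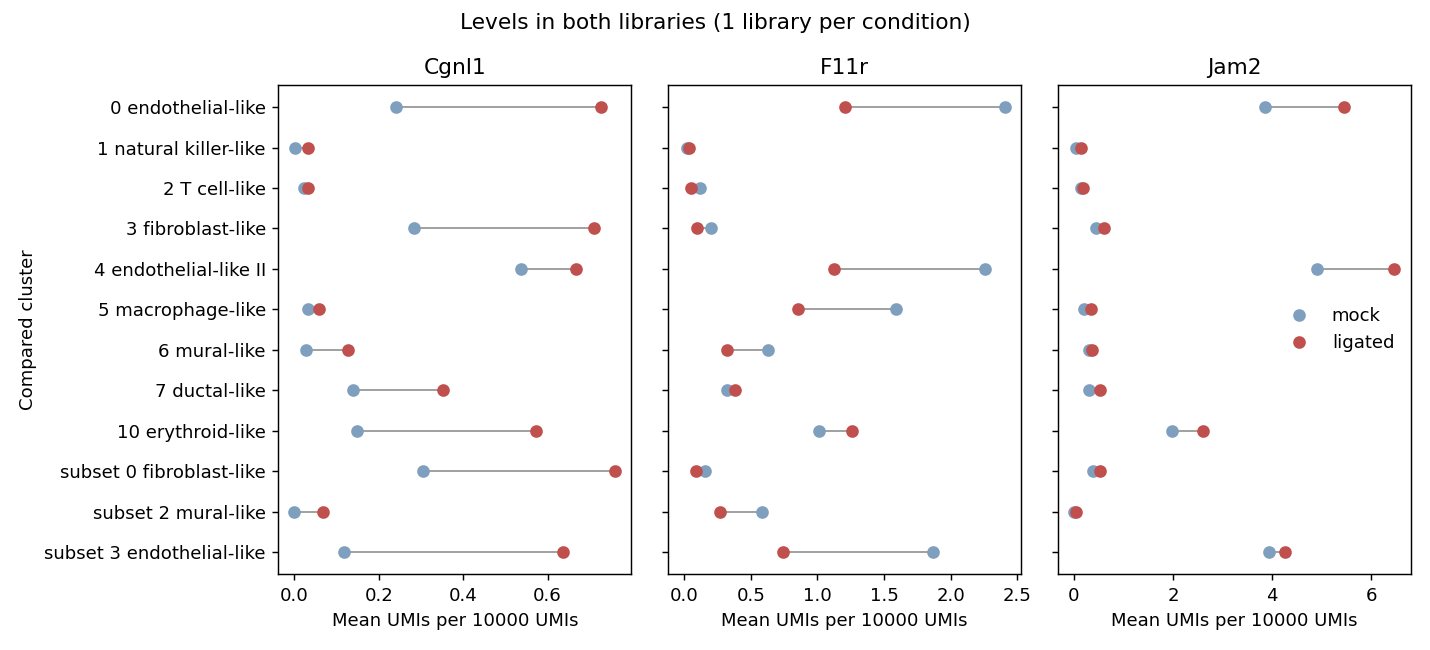
Level in UMIs per 10000 of Cgnl1, F11r and Jam2 (horizontal axis) in the mock and ligated library, 2 joined points for each of the 12 compared clusters (vertical axis). In the values as deposited, with no centring and nothing subtracted, Cgnl1 and Jam2 are higher in the ligated library in every one of the 12, and F11r is lower in 9 of them.

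The 5 immunoglobulin adhesion molecules each peaked in an endothelial-like cluster. PECAM-1, which lies at endothelial contacts and takes part in leukocyte passage, stood at 18.3 in ligated and 14.5 in mock cells of cluster 0 (difference 0.33). In cluster 4 its levels were 13.9 and 14.9 (difference -0.10). Neither difference is past the rule. In ductal-like cells Pecam1 stood at 1.38 and 0.489, a difference of 1.33 that is past it. There it was at 22.2% of its library mean in ligated and 5.21% in mock cells, where markers of other cell types were at 23.2% and 6.72%. With the mean profile of each library subtracted in that proportion, both levels came to 0. Endothelial markers summed to 12.5 in ligated and 7.46 in mock ductal-like cells.

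ESAM, an endothelial and platelet adhesion molecule, stood at 7.82 in ligated and 7.40 in mock cells of cluster 0 and at 6.90 and 6.97 in cluster 4. In mural-like cells it was 3.18 in ligated and 5.29 in mock (difference -0.72), and in mural-like cells of the subset 3.41 and 5.28 (difference -0.62). Neither reached the rule, and the subset is no independent check. Mural markers summed to 144 in ligated and 228 in mock mural-like cells, and to 163 and 241 in those of the subset. Their part in the Esam values was not tested.

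The 3 junctional adhesion molecules did not share a direction. F11r, or JAM-A, found on endothelium, epithelium and leukocytes, stood at 1.21 in ligated and 2.41 in mock cells of cluster 0 (difference -0.94). In cluster 4 the levels were 1.13 and 2.26 (difference -0.94), and in macrophage-like cells 0.853 and 1.59 (difference -0.83). All 3 fall just short of the rule. In endothelial-like cells of the subset F11r was 0.743 and 1.86, a difference of -1.22 that is past it, and 0.864% of all genes were called lower there. The endothelial markers of those cells summed to 105 in ligated and 174 in mock, and the fibroblast markers to 70.0 and 20.0. Endothelial markers summed to 150 in ligated and 193 in mock cells of cluster 0, and to 91.7 and 110 in cluster 4. The part of these sums in the F11r values was not tested. F11r was lower in the ligated library in 6 of 9 compared clusters of all cells and in 3 of 3 of the subset. Erythroid-like cells had 1.26 and 1.01, a difference of 0.30 that became -0.089 when centred on the median over genes there.

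Over whole libraries, the F11r mean was 0.485 after ligation and 1.59 after the mock operation, a difference of -1.53 that is past the rule, as it was for 1.16% of all genes in that direction. With the ligated clusters weighted as in the mock library the difference was -0.87. The unweighted library mean alone cannot tell a difference in cell mix from a difference in level within clusters. The F11r levels within clusters are given above.

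Jam2, or JAM-B, an endothelial ligand of integrins and of Jam3, was higher in the ligated library in 9 of 9 compared clusters and 3 of 3 of the subset in the values as deposited. In ductal-like cells its difference of 0.64 became -0.37 after the subtraction, and in erythroid-like cells 0.38 became -0.0019 after centring. In cluster 0 it was 5.44 in ligated and 3.85 in mock cells (difference 0.49), and in cluster 4 6.47 and 4.91 (difference 0.39). Jam3, its partner, stood at 4.18 and 3.98 in cluster 0. In cluster 4 it was 0.976 and 0.474 (difference 0.91), and in mural-like cells 1.71 and 2.38 (difference -0.45). None of these is past the rule.

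The 6 cadherins that reached 0.5 peaked in 5 different clusters. VE-cadherin (Cdh5), the adherens junction cadherin of endothelium, stood at 9.15 in 2948 ligated and 9.02 in 2363 mock cells of cluster 0 (difference 0.02). In cluster 4 it was 8.33 and 9.92 (difference -0.25), and in endothelial-like cells of the subset 6.83 and 8.26. It was thus not called anywhere. T-cadherin (Cdh13), which lacks a cytoplasmic tail, stood at 2.15 and 2.94 in cluster 4 (difference -0.44) and at 0.815 and 0.739 in cluster 0.

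Cdh11, the mesenchymal cadherin of fibroblasts, peaked in fibroblast-like cells, at 7.14 in ligated and 4.72 in mock (difference 0.59, not past the rule). Its subset levels were 7.55 and 5.03 (difference 0.57), and 92.4% of its summed expression lay in the subset. In endothelial-like cells of the subset it stood at 1.79 in ligated and 0.183 in mock cells, a difference of 2.74 that is past the rule. The summed fibroblast markers in those cells were 70.0 in ligated and 20.0 in mock, with 10 of 10 above 0 in both, and their part in the Cdh11 value was not tested. The whole-library mean of Cdh11 was 0.787 and 0.228 (difference 1.44, where 1.21% of all genes were higher past the rule), or a difference of 0.56 at the mock cell mix.

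Cdh1, E-cadherin, is the classical cadherin of epithelia and is also made by some lymphocytes. Its peak here lay in natural killer-like cells, at 0.854 in 3353 ligated and 1.15 in 679 mock cells (difference -0.39). T cell-like cells had 0.463 and 0.690 (difference -0.49). Ductal-like cells had 0.282 and 0.0508, and, libraries joined, endothelial-like cluster 0 was at 0.0316 and fibroblast-like cells at 0.0311. The next highest level, libraries joined, was 0.511 in unnamed cluster 8, which acinar genes lead. Cluster 8 also had 6 of 8 natural killer and 6 of 10 T cell markers at 0.5 or more. The T cell-like cluster had 7 of 8 natural killer markers at that level. The natural killer-like level was thus above the ductal-like one in both libraries, in glands depleted of EpCAM-bearing cells. With median recovered totals of 982.5 (ligated) and 1076.5 (mock) UMIs per ductal-like cell, the ductal-like Cdh1 levels rest on few UMIs.

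Cdh19 and Cdh2 marked Schwann-like cells. Cdh19, a glial cadherin, was 8.45 there with libraries joined, or 92.1% of its sum over the 12 clusters, and 0.333 in ligated and 0.448 in mock fibroblast-like cells. Cdh2, N-cadherin, was 1.92 in Schwann-like cells. It was 0.539 and 0.472 in mural-like cells (difference 0.16), where N-cadherin links pericytes to endothelium. The other 12 cadherins peaked between 0.00463 (Cdh22) and 0.144 (Cdh10).

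Counted over all clusters, 8 of 414 gene-cluster pairs of the tables of all cells were higher in the ligated library and 0 lower, where 1.17% of all 181260 pairs were higher and 0.711% lower. Of the 56 of these pairs that reached 0.5, 14.3% were called, against 11.1% of all pairs that did. In the subset 4 of 138 were higher and 1 lower, against 1.01% and 0.902% of all pairs. Of the 24 that reached 0.5, 20.8% were called, against 9.69%. The endothelial-like cluster of the subset, mixed by its markers, gave 3 of the 4 higher pairs and the 1 lower pair. The 13 calls came from 9 genes: Cgnl1, Cldn3, Cldn4, Cldn5, Cldn7, Pecam1, Tjp1, Cdh11 and F11r. In the 2 endothelial-like clusters the median difference of the genes reaching 0.5 was 0.12 (9 genes) and -0.13 (12 genes), against 0.013 and -0.0035 for all genes reaching 0.5. The corresponding medians were 1.16 (7 genes) against -0.09 in the ductal-like cluster and 0.17 (6 genes) against -0.06 in the fibroblast-like one. They were -0.35 (8 genes) against -0.07 in the mural-like cluster and 0.34 (8 genes) against 0.56 in the erythroid-like one. With 2 genes each, they were -0.34 against 0.03 in macrophage-like cells and -0.17 against 0.02 in T cell-like cells. Natural killer-like cells had 0.12 (2 genes) against -0.002.

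**Figure D4:**
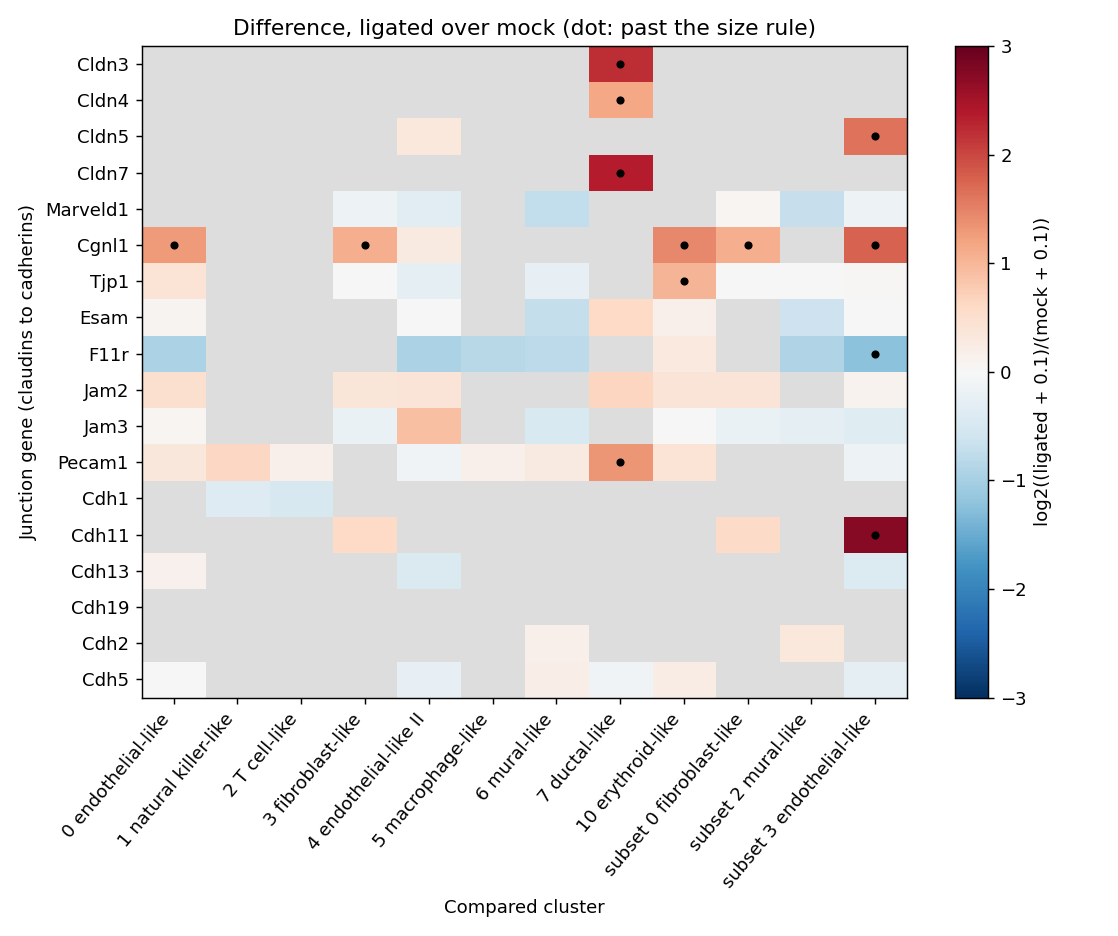
Difference between libraries, log2((ligated + 0.1)/(mock + 0.1)), as colour for 18 genes that reached 0.5 (rows) in the 12 compared clusters (columns), with grey where the larger level is under 0.5 and a dot where the difference is past the size rule. Dots lie in the Cgnl1 row of 5 clusters, in the ductal-like column for Cldn3, Cldn4, Cldn7 and Pecam1, and F11r carries the single dot for a lower value.

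Genes of lists that work beside these proteins were counted by the same rule, over pairs with a mean of at least 0.05. Of 420 pairs, 9 were higher and 5 lower in the ligated library, where 2.42% of all 88088 such pairs were higher and 1.46% lower. Adherens junction partners had 2 higher and 0 lower of 122, tight junction scaffold and polarity genes 0 and 3 of 110, desmosome genes 1 and 0 of 26, gap junction genes 2 and 0 of 29, and genes of endothelial junctions and leukocyte passage 4 and 2 of 133. Amotl2, an angiomotin that binds Cdh5 and polarity proteins, was lower past the rule in 3 compared clusters of all cells. It stood at 0.258 in ligated and 0.908 in mock cells of cluster 0 (difference -1.49), at 0.219 and 1.64 in cluster 4 (difference -2.45) and at 0.161 and 0.718 in mural-like cells (difference -1.65). It was also lower past the rule in mural-like and endothelial-like cells of the subset. Plvap, which forms diaphragms of endothelial openings, was higher past the rule in natural killer-like cells at 0.786 and 0.328 and in ductal-like cells at 2.31 and 1.09, and markers of other cell types stood at 7.36% and 2.18% of their library means in the former and 23.2% and 6.72% in the latter.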

How the data were processed

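The 2 droplet libraries were processed with Cell Ranger 6.0.1, Seurat and mm10, per the submitters' processing notes, and filters on cells, clustering settings and doublet removal are not given in the sources used here. The authors deposited cluster means on a linear scale, over cells, of a gene's share of a cell's UMIs per 10000 (each column sums to 10000), neither counts nor CPM, for 12 clusters of all cells and 5 of a subset, each joined and split by library. No counts per cell and no barcodes were used here, so no test, interval or doublet call was made, and barcodes shared between libraries could not be counted. Calendar dates had replaced 21 gene names, restored from the gene order, and none is a junction gene.

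Cell numbers and single-cell UMI totals were recovered from the means: weights by least squares, the smallest denominator within 2e-09 up to 20000, and whole UMI totals within 1e-06. This was checked on simulated data. Differences used a pseudocount of 0.1, which understates low genes. Genes were named where they reached 0.5 in a joined cluster or were past the size rule, except 1 that is not reported here and enters only the counts; partner genes where past it in at least 2 compared clusters of all cells. The genes, lists and rules were chosen with earlier results of these data known. Promoters and gene starts came from RefSeq (GRCm38.p6) and exons from GENCODE M21. Cldn3 overlaps an exon of Wbscr25, and Jam3, Tjp3, Cdh9, Cldn19 and Cldn22 one of another gene, on the opposite strand. This would split their reads only if counting ignored the strand, which was not checked here. Values were computed with Python 3.11.15, numpy 2.4.6 and pandas 2.3.3 and drawn with matplotlib 3.10.9. Alternatives changed the pseudocount, the minima, the size, the cell minimum, centring, cell mix and a subtraction of each library's mean profile.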

Additional observations from a re-analysis of the deposited data

How the results depend on the processing

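No called difference changed direction under the pseudocounts, centring, subtraction or cell mixes that were run. Among the 80 cluster differences of pairs reaching 0.5, 8 changed sign with centring and 7 with the profile subtracted, and 0 of these were called. Subtraction moved Pecam1 in mural-like cells (from 0.26 to -1.73) and macrophage-like cells (from 0.15 to -1.21). Of 19 whole-library differences, 10 changed sign at the mock cell mix and 6 with equal weight for every cluster. The counts of clusters under centring and subtraction for Cgnl1, Jam2, Cdh11 and F11r were chosen after seeing the data. Counts of gene-cluster pairs past the size rule did move. In all cells, the 8 higher pairs became 2 with a pseudocount of 1, 17 with no minimum level, 1 with a minimum level of 2, 2 with a size of at least 2, 5 with each library's mean profile subtracted and 16 with a cell minimum of 20. The 0 lower pairs became 1 with no minimum level and 7 with the cell minimum of 20, which adds unnamed clusters 8 and 11 with 25 and 22 mock cells. In the subset, the 4 higher pairs became 1 with a pseudocount of 1, 0 with a minimum level of 2 and 1 with a size of at least 2. The 1 lower pair became 2 with a pseudocount of 0.01, 2 with the profile subtracted, and 0 with a pseudocount of 1, a minimum level of 2 or a size of at least 2. Of the 13 called pairs, 13 were still called with a pseudocount of 0.01, 12 after centring on the median over genes, 10 after subtraction and 3 with a pseudocount of 1. The cause of these shifts was not tested. The 10 genes with their peak in an endothelial-like cluster were 11, 10 and 11 by the mean of both libraries, the ligated library alone and the mock library alone. No replicate could be left out, and no paired analysis was possible because each group has 1 library. Depth limits the ductal-like values most, at under 10 UMIs per claudin in the mock library.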

Other observations

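Junction genes in the clusters with fewer than 50 mock cells enter no comparison and are given as values. In Schwann-like cells (271 ligated and 17 mock) Cdh19 stood at 8.29 in ligated and 10.9 in mock. In unnamed cluster 8 (264 and 25 cells) the endothelial cadherin Cdh5 stood at 1.80 in ligated and 0.147 in mock, while acinar markers summed to 125 and 1515 and endothelial markers to 48.0 and 3.36. In unnamed cluster 11 (59 and 22 cells) Cdh5 went the other way, at 0.537 in ligated and 4.10 in mock, and the endothelial markers likewise summed to 8.32 and 63.7. The cells that share a cluster number in these clusters thus carried different marker sums in the 2 libraries.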
